A study of Mus musculus with 12 samples.

Results

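Gene expression in regulatory T cells (Treg) of old and of young wild-type mice was compared by RNA sequencing. Of the 12 libraries of the series, 4 were chosen by their titles: 2 of wild-type Treg from C57BL/6 mice over 18 months of age, and 2 of wild-type Treg from C57BL/6 mice of 2 months. Cells came from the spleen and were sorted by flow cytometry as CD4+CD25+ for Treg; conventional CD4 T cells (Tconv) were sorted as CD4+. The other 8 libraries were 2 each of Treg and of Tconv from mice of 2 months labelled Dcaf1-deficient, Tconv of old and Tconv of young wild-type mice. The labels do not say which promoter or allele removes Dcaf1, or whether replicates came from separate mice, so p-values measure the spread between these libraries. Levels are given as CPM (counts scaled to an equal library size), which compare libraries and not genes of different length. The 4 Treg libraries held 21947127 to 24546294 estimated counts, so that 3 counts over a group of 2 correspond to 0.0623 CPM in old and 0.0676 CPM in young Treg.

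Treg are CD4 T cells that hold other immune cells in check. Their defining transcription factor is Foxp3, and they carry high levels of CD25, the alpha chain of the interleukin-2 receptor encoded by Il2ra. Resting Treg circulate through lymphoid organs with homing receptors for lymph nodes, whereas effector Treg have met antigen and carry tissue and suppressor genes. With age the T cell pool shifts away from naive cells, and some cells acquire cell cycle inhibitors, such as Cdkn1a (p21) and Cdkn2a (p16), that mark cellular senescence.

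The 2 old libraries were not alike in ways that age does not describe, and these differences stand before the results. Rpl29, a ribosomal protein gene beside Dcaf1 (mm10 chr9:106429454-106431568), was at 92.7 CPM in the library labelled old Treg 1 and 438 in old Treg 2. It was at 34.0 and 31.5 CPM in Treg labelled Dcaf1-deficient, against 744 and 717 CPM in young Treg. The library labelled old Treg 1 thus lay between the wild-type and the Dcaf1-deficient libraries at this gene. Col6a4, a collagen gene on the same chromosome, was at 22.5 CPM in the library labelled old Treg 1 and 0 in old Treg 2, at 29.2 and 28.8 in Treg labelled Dcaf1-deficient, and at 0.047 and 0.389 in young Treg. Trim12a, whose near relatives make its own share of reads uncertain, was at 43.5 and 139 CPM in the library labelled old Treg 1 and old Treg 2, at 36.2 and 7.64 in Treg labelled Dcaf1-deficient and at 205 and 183 in young Treg. Using Tconv alone, 18 genes with a mean of 4 CPM or more were at least 1 log2 unit lower in both Dcaf1-deficient libraries than in all 4 wild-type ones. The library labelled old Treg 1 lay below both young Treg libraries and old Treg 2 in 16 of these 18. Of the 141 genes higher by the same rule, it lay above the other 3 wild-type Treg libraries in 123. Members of the macrophage, erythroid and neutrophil marker lists are among these 141, and their part in that count was not tested. The median log2 CPM of the 141 was 5.79 in the library labelled old Treg 1 and 2.43 in old Treg 2, against 0.72 in young Treg 1 and 4.62 in young Treg 2. Across 9495 genes its log2 CPM had a Pearson r of 0.993 with Dcaf1-deficient Treg 1, 0.971 with young Treg 2 and 0.914 with old Treg 2, a description in which genes are not independent. For this reason it is called the library labelled old Treg 1 throughout, and results are given with and without it. Where a pair of values follows, the first is from replicate 1 and the second from replicate 2, so that the first value of old Treg is always that of the library labelled old Treg 1.

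It was not in every respect like the Dcaf1-deficient libraries. Ecel1, an endopeptidase gene otherwise known from neurons, was at 9.05 CPM in the library labelled old Treg 1 and 44.1 in old Treg 2, at 0.0703 and 0.168 in Treg labelled Dcaf1-deficient, and at 0.188 and 0 in young Treg. Here the library labelled old Treg 1 lay below old Treg 2 and above the young and the Dcaf1-deficient Treg libraries.

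Old Treg 2 differed from the other 3 in sex and in a tag of its title. Xist, the X-inactivation transcript of female cells, was at 2018 CPM in old Treg 2 and at 1.41 to 2.39 CPM in the other 3 libraries. Y-linked genes summed to 0.598 CPM in old Treg 2 and to 500 to 718 CPM in the others. Old Treg 2 also carries the tag L3, whose meaning is not stated, where the other 3 carry L4. Age, sex and tag cannot be told apart in old Treg 2.

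RNA of other cells also varied between replicates. The 12 tested macrophage markers summed to 12280 CPM in the library labelled old Treg 1 and 1345 in old Treg 2, against 242 and 4897 CPM in young Treg 1 and 2. The 9 B cell markers summed to 2381 and 126 CPM in old Treg, against 95.5 and 3079 in young Treg. The 11 erythroid markers, globins with near-identical copies among them, summed to 4663 and 164 CPM in old Treg, against 31.6 and 1612 in young Treg. The library labelled old Treg 1 and young Treg 2 were thus high, and old Treg 2 and young Treg 1 low. The 11 T cell markers, none of them at 0, ran the other way: 4181 and 8175 CPM in old Treg, against 7774 and 5314 CPM in young Treg. None of the 3 other-cell lists set both old libraries apart from both young ones. In such bulk RNA, fewer cells of a type and less RNA per cell cannot be told apart.

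**Figure D1:**
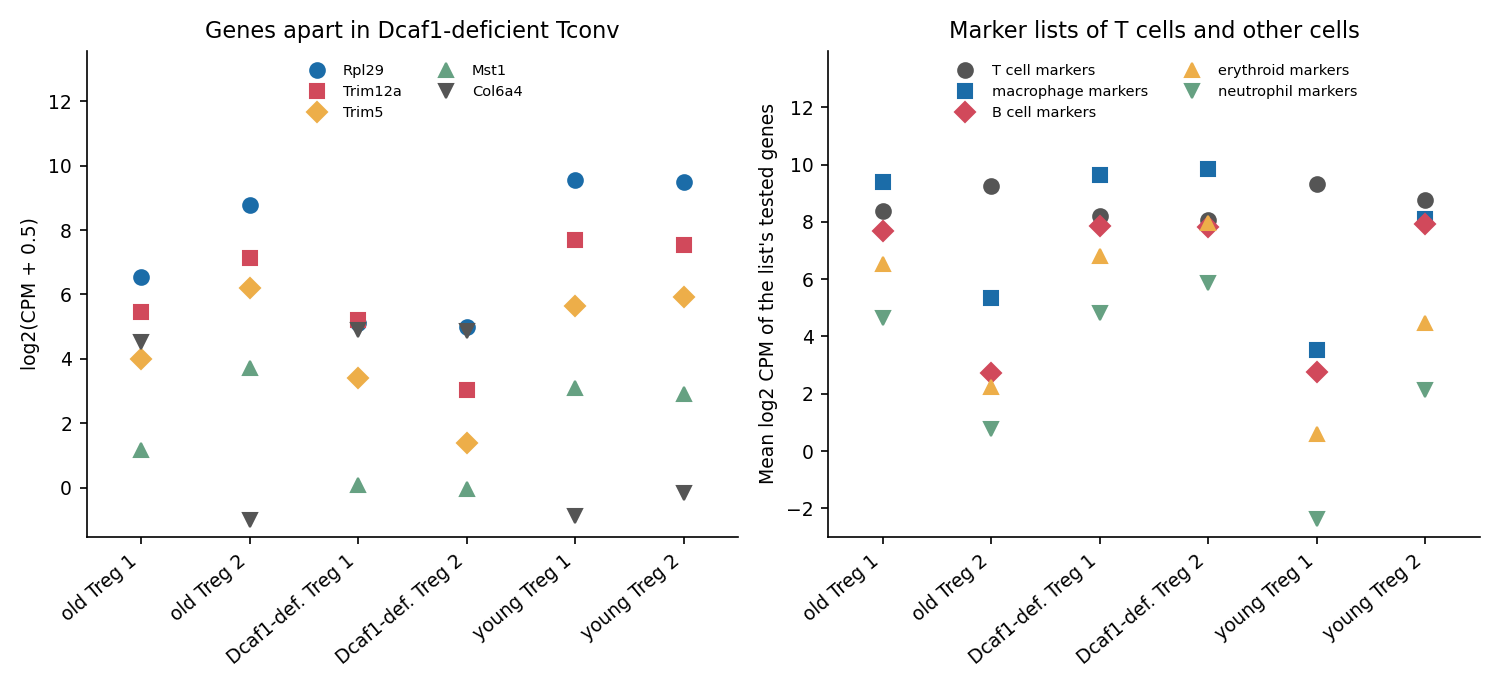
Left, log2(CPM + 0.5) in each of the 6 Treg libraries (x axis) of genes that set Dcaf1-deficient Tconv apart; right, mean log2 CPM over the tested members of marker lists. The library labelled old Treg 1 lies near the Dcaf1-deficient libraries in both panels, and in the right one old Treg 2 and young Treg 1 lie lowest at the macrophage, B cell, erythroid and neutrophil lists.

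Because of this spread, the comparison rests on genes for which both old libraries lie on the same side of both young ones. Of 9495 genes tested, 1922 (20.2%) were higher in both old libraries than in both young ones, and 2130 (22.4%) were lower in both. With 2 libraries against 2, a random order also puts many genes on one side, and an exact permutation p cannot go below 0.333. These totals are therefore a description and not a count of age differences. The median log2 fold change, old minus young, was 0.80 in the first set, -0.41 in the second and 0.02 over all tested genes. A gap of at least 1 log2 unit between the nearest old and young libraries was seen for 270 genes above and 75 below. Of the 1922 genes, old Treg 2 was the higher of the 2 old libraries in 1308 and the library labelled old Treg 1 in 614.

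The edgeR quasi-likelihood test called no gene between old and young Treg, 0% of 9495 at a Benjamini-Hochberg adjusted p of 0.05. The smallest adjusted p of edgeR was 0.112, and 1697 genes had an unadjusted p under 0.05. DESeq2 called 425 genes higher and 288 lower in old Treg, and limma on the deposited log2 values called 1 higher, Cobl, and 1 lower, Ctse. Without the library labelled old Treg 1, edgeR called 326 genes higher (3.33% of 9778) and 108 lower (1.1%), old Treg 2 then standing alone for its group and assumed to vary like the others. Without old Treg 2 it called 1 gene, Rpl29, lower. In what follows "higher" and "lower" give the side on which both old libraries lay. Fits without the library labelled old Treg 1 rest on old Treg 2 alone for their group, so members called by them are not counted. All 108 named genes had the same sign of log2 fold change with and without that library, whereas Col6a4, given above and not among them, changed sign.

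Ctse, the marker that separated the groups most evenly, encodes cathepsin E, an aspartic protease of the endosomal system (mm10 chr1:131638306-131675505). It was at 55.1 CPM in the library labelled old Treg 1 and 59.8 in old Treg 2, against 480 and 456 CPM in young Treg. Each old library was far below each young one, and replicates of a group lay close together. The log2 fold change was -3.03 (edgeR adjusted p 0.112, SE 0.34) with both old libraries and -2.97 (edgeR adjusted p 0.0216) without the library labelled old Treg 1. It was at 64.1 and 102 CPM in Treg labelled Dcaf1-deficient, so the library labelled old Treg 1 does not stand apart from those at this gene.

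Cdkn1a, the cyclin-dependent kinase inhibitor p21 and a classical target of p53, was higher (mm10 chr17:29090976-29100727). It was at 51.9 CPM in the library labelled old Treg 1 and 21.4 in old Treg 2, against 1.27 and 5.71 CPM in young Treg. Both old libraries lay above both young ones, the library labelled old Treg 1 highest, near the 62.3 and 46.0 CPM of Treg labelled Dcaf1-deficient. The log2 fold change was 3.39 (edgeR adjusted p 0.154, SE 0.87), or 2.61 (edgeR adjusted p 0.154) without the library labelled old Treg 1. Its level followed the macrophage markers within each age, being higher in the replicate with more macrophage RNA, and the part of other cells in it was not tested. Cdkn2a, a further cell cycle inhibitor gene known for p16, was at 9.58 and 3.96 CPM in old Treg, against 0 and 0.606 CPM in young Treg (log2 fold change 4.44, edgeR adjusted p 0.197, SE 1.45). These are counts per gene and do not separate its transcripts. In Treg labelled Dcaf1-deficient Cdkn2a was at 10.2 and 5.92 CPM, close to the library labelled old Treg 1.

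The promoter of Cdkn1a is shown because the gene is a textbook p53 target. A single window was used for each gene, at the first start listed for it, and other starts were not looked at. The window runs from 250 bases before to 50 bases after the annotated start (RefSeq, GRCm38.p6, chr17:29090729-29091028, plus strand), and the capitals mark a pair of CATG cores with 6 bases between them, the inner letters of a p53 site.
Cdkn1a: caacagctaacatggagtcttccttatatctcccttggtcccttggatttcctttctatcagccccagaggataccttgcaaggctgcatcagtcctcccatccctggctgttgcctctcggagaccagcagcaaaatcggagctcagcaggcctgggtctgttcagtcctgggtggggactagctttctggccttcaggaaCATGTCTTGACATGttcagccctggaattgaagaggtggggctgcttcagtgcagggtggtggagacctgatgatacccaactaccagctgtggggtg
Such a pair, the same on both strands, was in 25 of the 7461 tested genes' promoters for which a sequence was held, or 0.335%, and in 0 of the 10 from a list of other p53 targets. A match is a description of letters and not of binding.

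Foxp3 did not separate the groups (mm10 chrX:7573644-7595245). It was at 746 CPM in the library labelled old Treg 1 and 1986 in old Treg 2, against 1428 and 812 CPM in young Treg. The highest and the lowest value were both from old libraries (log2 fold change 0.29, edgeR adjusted p 0.796, SE 0.52), and the sign turned to -0.59 without old Treg 2. Foxp3 ran opposite to the other-cell RNA in all 4 libraries, being high in old Treg 2 and young Treg 1. Il2ra, the gene of the sorting marker, was at 763 and 969 CPM in old Treg, against 1337 and 887 CPM in young Treg, and the groups overlapped too. Both genes stood far above young Tconv, where Foxp3 was at 47.7 and 78.4 CPM and Il2ra at 31.8 and 63.2 CPM.

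**Figure D2:**
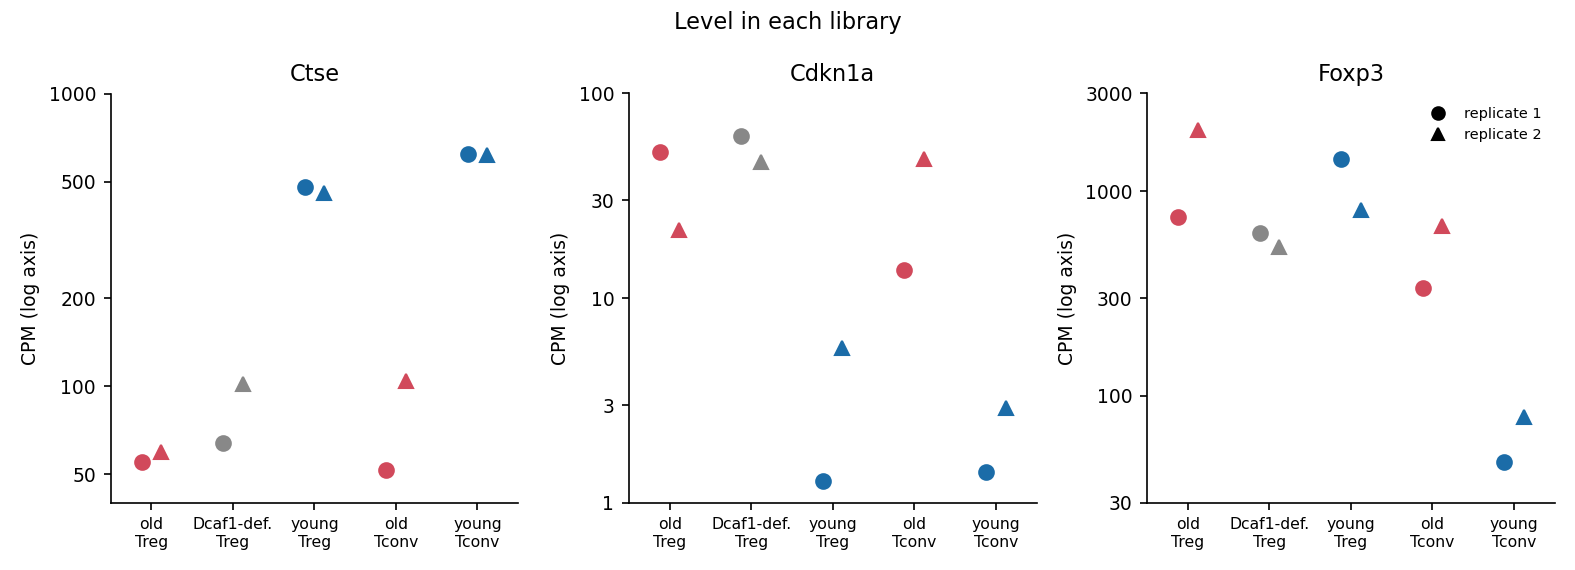
CPM on a log axis of Ctse, Cdkn1a and Foxp3 in each library, with circles for replicate 1 and triangles for replicate 2; red marks old, blue young and grey Dcaf1-deficient. Ctse lies at 55.1 and 59.8 CPM in old Treg and at 480 and 456 in young Treg, while the Foxp3 values of old and young Treg overlap.

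Ecel1, given above, had the widest gap between old and young Treg of the 12 higher genes named for their gap, and its log2 fold change was 8.10 (edgeR adjusted p 0.126, SE 1.30). Cobl, an actin nucleator, was at 7.65 and 14.4 CPM in old Treg, against 0.0942 and 0.389 CPM in young Treg. Its log2 fold change was 5.47 (SE 0.91), and the call by limma had an adjusted p of 0.0476. Rasgrf1, an exchange factor that activates Ras, was at 3.94 and 36.8 CPM in old Treg, against 0.188 and 0 CPM in young Treg. In each of these genes old Treg 2 was the higher of the 2 old libraries. Sncg, which encodes gamma-synuclein, had no count in either young library and was at 1.06 and 7.22 CPM in old Treg. Against a floor of 3 counts over the young group it was at least 56.9-fold higher. Nwd2 was at 1.36 and 21.5 CPM in old Treg, against 0.0471 and 0.0433 CPM in young Treg.

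Pcsk1, a proprotein convertase that cleaves prohormones, was at 3.60 and 6.58 CPM in old Treg, against 0.377 and 0.346 CPM in young Treg (log2 fold change 3.79, SE 0.52). Stab1, a scavenger receptor best known from macrophages and sinusoidal endothelium, was at 21.01 and 185 CPM in old Treg, against 2.68 and 2.34 CPM in young Treg. It was highest in old Treg 2, where the macrophage markers summed to 1345 CPM, less than in the library labelled old Treg 1 or in young Treg 2. The part of other cells in Stab1 was not tested. Phlda3, a p53 target that restrains the kinase AKT, was at 14.0 and 9.89 CPM in old Treg, against 0.848 and 1.43 CPM in young Treg (log2 fold change 3.38, edgeR adjusted p 0.126, SE 0.51). Phlda3 was, like the macrophage markers, the higher of each age in the library labelled old Treg 1 and in young Treg 2, and the part of other cells in it was not tested. Unlike the others, Phlda3 and the sialyltransferase gene St6galnac1 were higher in the library labelled old Treg 1 than in old Treg 2. Muc20, Nckap5 and Myh3, an embryonic myosin heavy chain gene, completed the set with log2 fold changes of 4.78, 5.03 and 5.96. The library labelled old Treg 1 lay between the Dcaf1-deficient Treg libraries in Cobl (7.88 and 4.79 CPM there), Muc20, Nckap5, Pcsk1, Phlda3 and St6galnac1. It lay above both of them in Ecel1, Rasgrf1 (0.985 and 0.294 CPM there), Sncg, Nwd2, Myh3 and Stab1. Without the library labelled old Treg 1, the log2 fold changes of the 12 ran from 3.11 (Phlda3) to 10.3 (Sncg).

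Among the 12 lower genes, Acvr1c, which encodes the activin receptor ALK7, had no count in either old library and was at 6.78 and 1.30 CPM in young Treg. Against a floor of 3 counts over the old group it was at least 62.7-fold lower. Nsg2, a vesicle protein gene known from neurons, was at 88.6 and 16.2 CPM in old Treg, against 471 and 322 CPM in young Treg (log2 fold change -2.92, SE 1.02). Ccr9, a chemokine receptor for homing to thymus and gut, was at 9.73 and 9.62 CPM in old Treg, against 38.8 and 32.8 CPM in young Treg (log2 fold change -1.89, edgeR adjusted p 0.126, SE 0.41). The replicates of each age were closer in Ccr9 than in Nsg2. Ly6c1, which shares nearly all of its sequence with a neighbouring copy and so is uncertain, was at 21.3 and 3.497 CPM in old Treg, against 146 and 74.9 CPM in young Treg. Selp, the adhesion receptor P-selectin, was at 1.89 and 0.460 CPM in old Treg, against 9.37 and 6.71 CPM in young Treg. Tdrp, Scg5, Ntn4, Khdc1a, Gabrr2 and the pseudogene Bambi-ps1 had log2 fold changes of -2.92, -2.25, -2.62, -2.55, -2.93 and -2.09, the last of which may share reads with its parent gene. In Treg labelled Dcaf1-deficient, Nsg2 was at 83.8 and 98.0 CPM, Ly6c1 at 23.8 and 26.5 and Ccr9 at 10.1 and 20.5. Both of those libraries lay below both young ones in each of the 12. The library labelled old Treg 1 lay between them in Nsg2, Selp and Bambi-ps1, above both in Scg5 and Khdc1a, and below both in the rest. Without it, the log2 fold changes of the 12 ran from -1.89 (Ccr9) to -9.45 (Acvr1c).

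**Figure D3:**
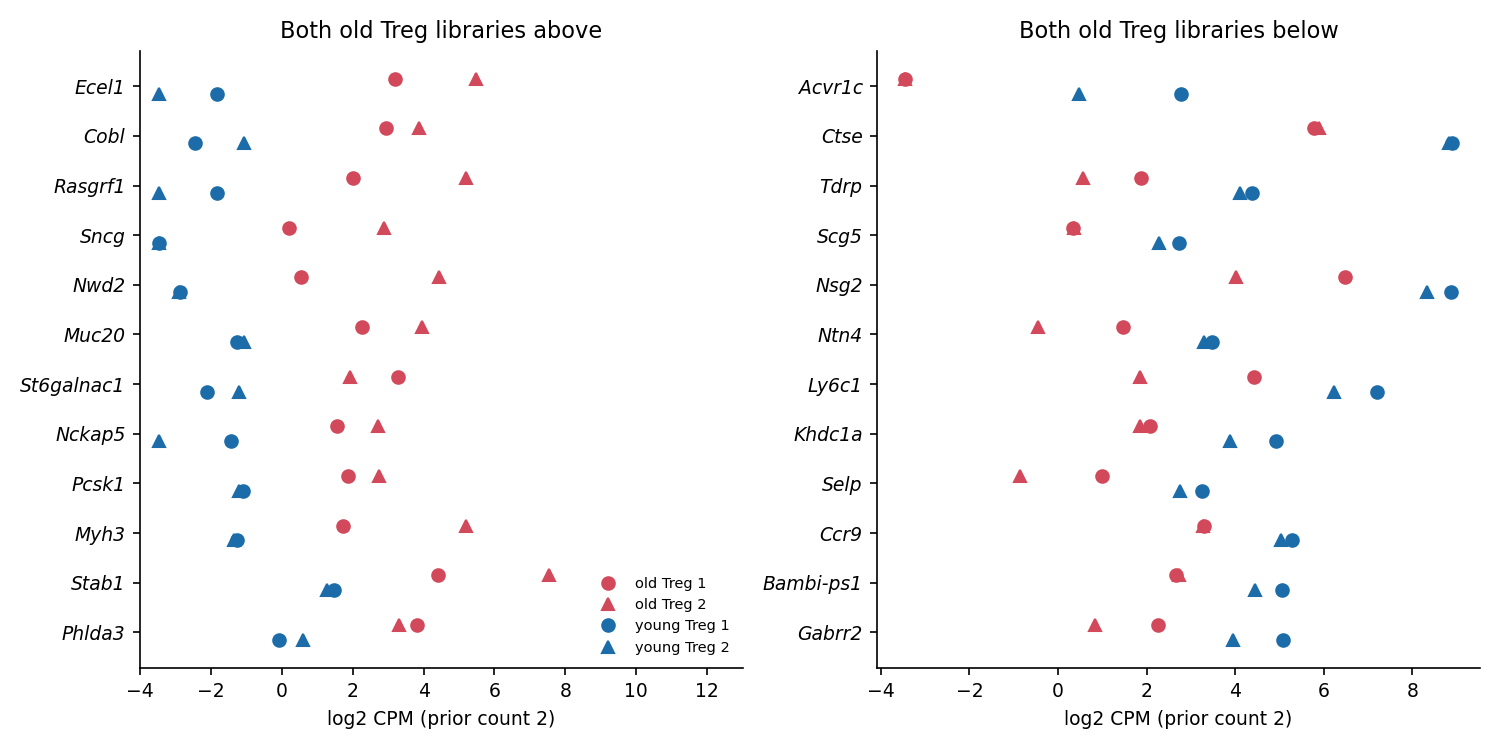
Log2 CPM (prior count 2) of the 12 higher and 12 lower genes with the widest gap between the nearest old (red) and young (blue) Treg libraries, ordered by gap. Old and young points do not overlap in any gene, which the choice of genes fixes; replicates of old Treg differ most in Nwd2.

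Genes of effector Treg had the largest share of members on the higher side among the lists. Of 17 tested members, 16 were higher and 0 lower, beside 20.2% and 22.4% of all tested genes, and the median log2 fold change was 1.81 beside 0.02. The list summed to 2495 and 5134 CPM in old Treg, against 1017 and 1162 CPM in young Treg. In Treg labelled Dcaf1-deficient the sum was 2399 and 1965 CPM, close to that of the library labelled old Treg 1. Areg, which encodes the tissue repair factor amphiregulin, was at 12.04 CPM in the library labelled old Treg 1 and 85.0 in old Treg 2, against 3.06 and 1.60 CPM in young Treg (log2 fold change 4.38, edgeR adjusted p 0.126, SE 0.86). Prdm1, which encodes the effector transcription factor Blimp-1, was at 117 and 514 CPM in old Treg, against 34.0 and 42.0 CPM in young Treg (3.05, SE 0.62). In both genes old Treg 2 was several times higher than the library labelled old Treg 1, and the 2 young libraries were alike. Klrg1, a receptor of terminally differentiated cells, was at 127 and 346 CPM in old Treg, against 31.8 and 38.3 CPM in young Treg (2.76, SE 0.64). Il1rl1, which encodes the interleukin-33 receptor ST2, was at 106 and 260 CPM in old Treg, against 38.8 and 32.3 CPM in young Treg (2.36, SE 0.39). The one member that overlapped was Gata3, at 91.1 and 294 CPM in old Treg, against 126 and 81.9 CPM in young Treg.

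Areg, Prdm1, Klrg1 and Il1rl1 were highest in old Treg 2, and the part of other cells in them was not tested. Without the library labelled old Treg 1, the median of the list was 2.26. The transcription factor gene Irf4, the calcium-binding protein genes S100a4 and S100a6 and the chemokine receptor gene Ccr2 had the order of the macrophage markers. They were higher in the library labelled old Treg 1 than in old Treg 2, and higher in young Treg 2 than in young Treg 1. The part of other cells in these 4 genes was not tested. Itgae, the CD103 integrin chain that binds E-cadherin on epithelia, came from the Treg identity list. It was at 549 and 2343 CPM in old Treg, against 167 and 146 CPM in young Treg (log2 fold change 3.21, edgeR adjusted p 0.126, SE 0.63), and at 461 and 305 CPM in Treg labelled Dcaf1-deficient. Of the 13 tested identity genes, 4 were higher (30.8%) and 1 lower (7.7%), and 8 overlapped. Over all tested genes 20.2% were higher and 22.4% lower. Entpd1, the ectoenzyme CD39, and Capg, an actin capping protein gene, had log2 fold changes of 0.91 and 1.20, and the orphan receptor gene Gpr83 was lower (log2 fold change -1.79). The identity list's median was 0.67 with both old libraries, 1.00 without the library labelled old Treg 1 and -0.47 without old Treg 2.

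Genes of naive and resting T cells lay on the other side. Of 17 tested members, 16 were lower (94.1%) and 0 higher, beside 22.4% and 20.2% of all tested genes. Their median log2 fold change was -1.30. The library labelled old Treg 1 was also below both young libraries in 11 of the 11 T cell markers, and old Treg 2 in 1. The part of other cells in the naive list was not tested. The list summed to 3025 and 1574 CPM in old Treg, against 6733 and 5230 CPM in young Treg. In Treg labelled Dcaf1-deficient the sum was 3160 and 3300 CPM, close to that of the library labelled old Treg 1. Tcf7, which encodes the transcription factor TCF-1, was at 235 CPM in the library labelled old Treg 1 and 126 in old Treg 2, against 746 and 517 CPM in young Treg (log2 fold change -1.81, edgeR adjusted p 0.163, SE 0.50). Bcl2, the survival factor, was at 161 and 89.4 CPM in old Treg, against 555 and 336 CPM in young Treg (-1.83, edgeR adjusted p 0.126, SE 0.31). In both genes old Treg 2 was the lowest library. Without the library labelled old Treg 1 the median was -2.32. The log2 fold changes of Bcl2, the egress receptor gene S1pr1 and the interleukin-6 receptor gene Il6ra were then -2.32, -2.63 and -3.88. The member that overlapped was Igfbp4, at 80.8 and 1.57 CPM in old Treg, against 120 and 67.1 CPM in young Treg.

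Cytosolic ribosomal protein genes formed the largest group with a common side. Of 57 tested members, 55 were lower (96.5%) and 0 higher, beside 22.4% and 20.2% of all tested genes. Their median log2 fold change was -0.71, or -0.75 without the library labelled old Treg 1. Their summed level was 55366 CPM in the library labelled old Treg 1 and 50379 in old Treg 2, against 89285 and 81406 CPM in young Treg. The 2 old libraries were close to each other, and the part of other cells in this level was not tested. Rps16 was at 1055 and 978 CPM in old Treg, against 1932 and 1701 CPM in young Treg (log2 fold change -0.84, edgeR adjusted p 0.153, SE 0.21). Rpl12 and Rps28 were lower by a log2 fold change of -0.87 each. Processed pseudogenes of this family share reads with many members, so the share of a single gene is uncertain. Rpl29 had a log2 fold change of -1.46 with both old libraries, -0.74 without the library labelled old Treg 1 and -2.98 without old Treg 2. The values without the library labelled old Treg 1 rest on old Treg 2 alone for its group. The same summed level was 58205 and 55033 CPM in Treg labelled Dcaf1-deficient.

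Promoters are shown for 3 members on this side, those with the widest gap among members whose window holds the letters CCGGAAG, a core that ETS family factors bind. Members on a single chromosome were left out before this choice. Rps18, at 1161 and 978 CPM in old Treg, against 2036 and 1807 CPM in young Treg, has the window chr17:33955616-33955915 on the minus strand. Rps10, at 837 and 742 CPM in old Treg, against 1414 and 1288 CPM in young Treg, has the window chr17:27635195-27635494 on the minus strand. Rpl35, at 619 and 457 CPM in old Treg, against 957 and 931 CPM in young Treg, has the window chr2:39005082-39005381 on the minus strand. The 3 levels differed in the same way by age. Capitals mark the core on either strand (RefSeq, GRCm38.p6, each 5′ to 3′ along its gene).
Rps18: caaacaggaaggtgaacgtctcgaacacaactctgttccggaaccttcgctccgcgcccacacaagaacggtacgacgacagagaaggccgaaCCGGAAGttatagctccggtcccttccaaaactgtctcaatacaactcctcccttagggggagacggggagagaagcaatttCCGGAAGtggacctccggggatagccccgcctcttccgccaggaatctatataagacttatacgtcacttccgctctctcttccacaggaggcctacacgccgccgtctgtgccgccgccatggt
Rps10: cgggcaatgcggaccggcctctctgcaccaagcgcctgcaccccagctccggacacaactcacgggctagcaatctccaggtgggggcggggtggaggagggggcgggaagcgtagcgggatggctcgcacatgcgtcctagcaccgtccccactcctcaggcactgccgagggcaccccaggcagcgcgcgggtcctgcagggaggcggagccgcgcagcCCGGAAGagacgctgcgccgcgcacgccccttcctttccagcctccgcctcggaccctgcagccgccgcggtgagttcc
Rpl35: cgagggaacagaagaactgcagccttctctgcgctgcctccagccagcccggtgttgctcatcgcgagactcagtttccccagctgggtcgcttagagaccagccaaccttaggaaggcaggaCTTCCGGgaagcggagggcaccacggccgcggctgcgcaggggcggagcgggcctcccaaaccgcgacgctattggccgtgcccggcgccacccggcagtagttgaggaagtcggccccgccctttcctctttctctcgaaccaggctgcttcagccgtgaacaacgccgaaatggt
A sequence was held for 42 of the 57 ribosomal genes, and 16 of the 42 held the core on either strand, or 38.1%, beside 16.3% of 7461 promoters of tested genes. All 16 were among the 41 with a sequence that lay lower in old Treg, which leaves 1 gene for the other side and hence no comparison.

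**Figure D4:**
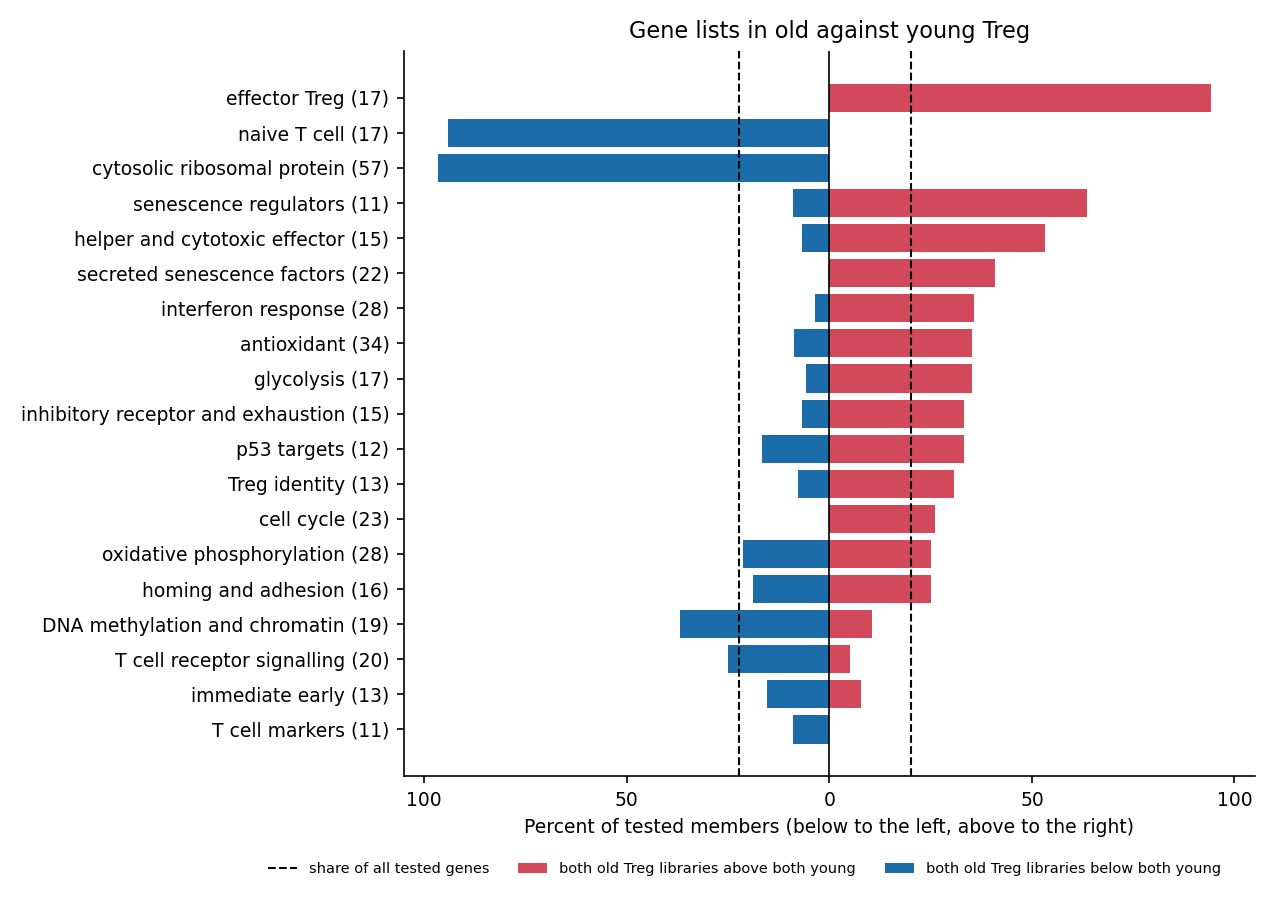
Percent of each list's tested members (number in brackets) with both old Treg libraries above (red, to the right) or below (blue, to the left) both young ones; dashed lines give the 20.2% and 22.4% of all tested genes. Effector Treg genes extend farthest to the right, ribosomal and naive T cell genes farthest to the left.

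Senescence genes were unevenly placed. Of 11 tested regulators, 7 were higher (63.6%) and 1 lower (9.1%), beside 20.2% and 22.4% of all tested genes. Their median log2 fold change was 0.38, or 0.60 without the library labelled old Treg 1. Besides Cdkn1a and Cdkn2a, the inhibitor gene Cdkn2c (p18) was at 20.6 and 25.03 CPM in old Treg, against 7.53 and 14.0 CPM in young Treg. Lmnb1, the nuclear lamin B1 gene whose loss is a textbook mark of senescent cells, was higher and not lower, at 302 and 160 CPM in old Treg, against 85.3 and 123 CPM in young Treg (log2 fold change 1.15, SE 0.33). Cdkn2a and Lmnb1 had the order of the macrophage markers within each age, and the part of other cells in them was not tested. Without the library labelled old Treg 1 the log2 fold change of Lmnb1 was 0.62. It was then 0.60 and 0.94 for the retinoblastoma relatives Rbl1 and Rbl2. Of 12 further p53 targets, 4 were higher (33.3%) and 2 lower (16.7%), beside 20.2% and 22.4% of all tested genes. Ei24 and Zmat3 had log2 fold changes of 0.58 and 0.54, and Sesn1, a stress-induced inhibitor of the mTOR kinase, was lower (log2 fold change -1.03, SE 0.35).

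Of 22 tested genes for factors that senescent cells secrete, 9 were higher (40.9%) and 0 lower, beside 20.2% and 22.4% of all tested genes. Their median log2 fold change was 0.99, or 0.55 without the library labelled old Treg 1. Cxcl10, an interferon-induced chemokine, was at 24.8 and 94.2 CPM in old Treg, against 4.80 and 9.87 CPM in young Treg (log2 fold change 3.02, edgeR adjusted p 0.126, SE 0.62). Spp1, which encodes osteopontin, was at 1.40 and 37.5 CPM in old Treg, against 0.753 and 0.476 CPM in young Treg. The difference in Spp1 came nearly all from old Treg 2. Ccl5, a chemokine gene, had a log2 fold change of 1.60, with an edgeR adjusted p of 0.353. Macrophages express several of these genes, and the part of other cells in the list was not tested.

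Inhibitory receptors and helper genes were mostly higher where the groups separated. Of 15 exhaustion genes, 5 were higher (33.3%) and 1 lower (6.7%), beside 20.2% and 22.4% of all tested genes. Their median was 0.66, or 0.96 without the library labelled old Treg 1. Lag3, an inhibitory receptor for MHC class II, was at 122 and 652 CPM in old Treg, against 46.9 and 42.8 CPM in young Treg (log2 fold change 3.11, SE 0.91). Gzmk, a granzyme gene, was at 2.16 and 7.78 CPM in old Treg, against 0.283 and 0.433 CPM in young Treg (3.76, SE 0.85). Both were higher in old Treg 2, and so were Tox2 and Havcr2, an exhaustion factor gene and the TIM-3 gene, at log2 fold changes of 1.75 and 1.88. The ligand gene Cd200 was the member on the lower side, at 65.5 and 82.8 CPM in old Treg, against 130 and 98.9 CPM in young Treg.

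Of 15 helper and cytotoxic genes, 8 were higher (53.3%) and 1 lower (6.7%), beside 20.2% and 22.4% of all tested genes. Their median was 1.08, or 0.69 without the library labelled old Treg 1. Il21, a cytokine of follicular helper cells, was at 11.4 and 6.53 CPM in old Treg, against 1.51 and 0.909 CPM in young Treg (2.89, edgeR adjusted p 0.126, SE 0.58). In Treg labelled Dcaf1-deficient Il21 was at 12.9 and 4.58 CPM. Tbx21, the master factor of Th1 cells, was higher by 1.60. Cd40lg, the helper ligand for B cells, was at 18.8 and 14.5 CPM in old Treg, against 50.1 and 37.8 CPM in young Treg (-1.40, edgeR adjusted p 0.112, SE 0.19). The part of other cells in these genes was not tested.

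Interferon-response genes separated mainly through old Treg 2. Of 28 tested, 10 were higher (35.7%) and 1 lower (3.6%), beside 20.2% and 22.4% of all tested genes. Their median log2 fold change was 0.51, or 0.77 without the library labelled old Treg 1 and 0.13 without old Treg 2. Old Treg 2 lay above both young libraries in 21 members and the library labelled old Treg 1 in 13. Oas1a, an antiviral sensor gene with close relatives in its cluster, was at 90.8 and 176 CPM in old Treg, against 40.4 and 41.3 CPM in young Treg (1.71, edgeR adjusted p 0.126, SE 0.28). Ifi44 was at 12.2 and 42.0 CPM in old Treg, against 3.86 and 5.06 CPM in young Treg (2.60, SE 0.59). Isg20 and Ifih1, an exonuclease and an RNA sensor gene, were higher by 0.90 and 0.84. The median without the library labelled old Treg 1 rests on old Treg 2 alone for its group.

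Of 20 tested genes of T cell receptor signalling, 1 was higher (5%) and 5 lower (25%), beside 20.2% and 22.4% of all tested genes. The share of lower members was thus near that of all genes. The library labelled old Treg 1 lay below both young libraries in 17 members, and old Treg 2 in 5. The part of other cells in this list was not tested. The median of this list was -0.21 with both old libraries and 0.09 without the library labelled old Treg 1. Prkcq, which encodes protein kinase C theta, was at 213 and 196 CPM in old Treg, against 705.9 and 402 CPM in young Treg (log2 fold change -1.44, edgeR adjusted p 0.126, SE 0.25). Malt1, a protease of T cell receptor signalling, was higher, at 311 and 854 CPM in old Treg, against 230 and 260 CPM in young Treg. Dgkz, a diacylglycerol kinase gene, was lower by a log2 fold change of -0.63. Of 13 immediate early genes, 1 was higher (7.7%) and 2 lower (15.4%), both shares under those of all tested genes. The higher one was Fosl2, an AP-1 subunit (2.05, SE 0.44). The lower ones were Myc (-1.10, SE 0.19) and the phosphatase gene Dusp2 (-0.74, SE 0.15).

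Among 16 homing genes, 4 were higher (25%) and 3 lower (18.75%), near the 20.2% and 22.4% of all tested genes. Cd44, the hyaluronan receptor of antigen-experienced T cells, was at 414 and 376 CPM in old Treg, against 183 and 283 CPM in young Treg, and Icam2 was lower (-0.52, SE 0.11). Of 19 genes of DNA methylation and chromatin, 2 were higher and 7 lower, and the median of -0.05 was close to that of all genes. The 5-methylcytosine dioxygenase gene Tet1 was at 15.5 and 16.1 CPM in old Treg, against 39.6 and 28.8 CPM in young Treg. Tet3, Dnmt3b and Hdac1 had log2 fold changes of -0.85, -0.98 and -0.32.

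Cell cycle genes gave an example of a difference carried by 1 library. Of 23 tested, 6 were higher (26.1%) and 0 lower, beside 20.2% and 22.4% of all tested genes. Their median log2 fold change was 1.35, or 0.25 without the library labelled old Treg 1. That library lay above both young ones in 22 members, and old Treg 2 in 6. The summed level was 2727 CPM in the library labelled old Treg 1 and 1427 in old Treg 2, against 926 and 1236 CPM in young Treg, and 2961 and 2591 CPM in Treg labelled Dcaf1-deficient. Mcm6, a subunit of the replicative helicase, was at 350 and 441 CPM in old Treg, against 223 and 231 CPM in young Treg (0.80, SE 0.28). The centromere histone gene Cenpa was at 71.8 and 63.4 CPM in old Treg, against 38.0 and 41.6 CPM in young Treg. Ccne2, at 23.02 and 6.07 CPM in old Treg, against 3.81 and 5.45 CPM in young Treg, and Tk1 were less even.

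Metabolic lists were mixed. Of 17 glycolysis genes, 6 were higher (35.3%) and 1 lower (5.9%), beside 20.2% and 22.4% of all tested genes. Their median was 0.13, or 0.33 without the library labelled old Treg 1. Tpi1, triosephosphate isomerase, was at 231 CPM in each old library, against 82.2 and 118 CPM in young Treg, and Gapdh was at 2016 and 2038 CPM in old Treg, against 1314 and 1320 CPM in young Treg; both genes have processed pseudogenes and are uncertain for that reason. Slc16a3, a lactate exporter gene, was higher by 2.18, and the muscle enolase gene Eno3 was lower (-1.09). Of 28 genes of oxidative phosphorylation, 7 were higher (25%) and 6 lower (21.4%), shares near the 20.2% and 22.4% of all tested genes. Their median was 0.00, or -0.04 without the library labelled old Treg 1. Among them Cox5b and Ndufb8 were higher by 0.57 and 0.28, and Ndufb5 and Uqcrh were lower (-0.14 and -0.24).

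The study's title names reactive oxygen species. Of 34 antioxidant genes, 12 were higher (35.3%) and 3 lower (8.8%), beside 20.2% and 22.4% of all tested genes. Their median log2 fold change was 0.31, or -0.06 without the library labelled old Treg 1. Srxn1, the sulfiredoxin that restores peroxiredoxins, was at 16.8 and 48.9 CPM in old Treg, against 1.88 and 5.24 CPM in young Treg (3.20, edgeR adjusted p 0.126, SE 0.68). Nqo1, a quinone reductase gene, was at 3.52 and 1.33 CPM in old Treg, against 0.753 and 0.736 CPM in young Treg. The glutathione transferase genes Gstt1 and Gstt3, neighbours of like sequence, were higher by 2.29 and 1.17. Of 6 NADPH oxidase genes, 0 were higher and 1, Noxa1, was lower, at 3.48 and 6.49 CPM in old Treg, against 9.42 and 7.70 CPM in young Treg. The summed NADPH oxidase level was 798 and 476 CPM in old Treg, against 261 and 748 CPM in young Treg, the same order as the macrophage markers.

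Markers of other cells had few members on one side, where 20.2% of all tested genes were higher and 22.4% lower. Of the 12 macrophage markers 1 was higher, Axl, a receptor for dying cells, at 1293 and 713 CPM in old Treg, against 93.4 and 503 CPM in young Treg. The B cell and erythroid lists had 0 of 9 and 0 of 11 members on one side. Of 8 neutrophil markers 1, the protease gene Mmp9, was higher (0.96). Natural killer and CD8 T cell markers had 2 of 6 higher, Ncr1 and Xcl1. Zbtb46, listed for dendritic cells, was at 11.6 and 59.2 CPM in old Treg, against 2.50 and 4.93 CPM in young Treg, and Itga2b of 2 tested platelet markers was lower (-0.79). The plasma cell list had 1 of 5 higher, Prdm1, which effector Treg also express. Thy1 was the 1 of 11 T cell markers on one side, at 480 and 305 CPM in old Treg, against 733 and 544 CPM in young Treg. Of 33 tested genes beside Dcaf1 on chromosome 9, 8 (24.2%) were higher and 10 (30.3%) lower, shares not far from the 20.2% and 22.4% of all genes. Among them Dock3 was at 1.78 and 1.84 CPM in old Treg, against 0.0942 and 0.260 CPM in young Treg.

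The same comparison in Tconv of the 4 wild-type libraries gives the genes that lay on the same side in both cell types. There 2855 genes (30.1%) were higher in both old libraries and 2759 (29.1%) lower. Of the 1922 genes higher in old Treg, 1285 (66.9%) were also higher in old Tconv, which is 45.0% of the 2855, and 91 were lower. Of the 2130 genes lower in old Treg, 1344 (63.1%) were also lower in old Tconv, 48.7% of the 2759, and 114 were higher. Replicate 2 is female with tag L3 in old Treg and in old Tconv alike, so these shares carry sex and tag as well as age. Old Tconv 1, male with tag L5, lay above both young Tconv libraries for 70.8% of the genes higher in old Treg, beside 38.7% of all genes. It lay below both for 69.5% of the genes lower in old Treg, beside 38.3% of all genes. The sort of Tconv was by CD4, and Foxp3 was at 334 and 675 CPM in old Tconv, against 47.7 and 78.4 CPM in young Tconv. Il2ra overlapped there, at 43.1 and 29.7 CPM in old Tconv, against 31.8 and 63.2 CPM in young Tconv. The part of Treg among the Tconv in these shares was not tested.

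By group, 14 of the 16 higher effector Treg genes were also higher in old Tconv, all 16 lower naive genes were also lower, and so were all 55 lower ribosomal genes. Ctse was at 51.6 and 104 CPM in old Tconv, against 621 and 617 CPM in young Tconv (log2 fold change -2.99). Cdkn1a was at 13.7 and 47.7 CPM in old Tconv, against 1.41 and 2.92 CPM in young Tconv (3.83). Ecel1 was at 62.7 and 63.8 CPM in old Tconv, against 0.0939 and 0.110 CPM in young Tconv. Il1rl1, in turn, overlapped in Tconv, at 14.2 and 9.89 CPM in the old, against 9.01 and 10.9 CPM in the young, but the difference between the cell types was not called (log2 difference 2.09, edgeR adjusted p 0.467). Gzmk had the larger difference in Tconv, at 174 and 563 CPM in the old, against 2.35 and 2.31 CPM in the young (log2 difference -3.54, edgeR adjusted p 0.593).

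The test of the difference itself, the age effect in Treg minus that in Tconv, called no gene by edgeR (0% of 9495), with 615 genes at an unadjusted p under 0.05 and a smallest adjusted p of 0.0626. DESeq2 called 128. No gene is therefore described as particular to Treg.

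**Figure D5:**
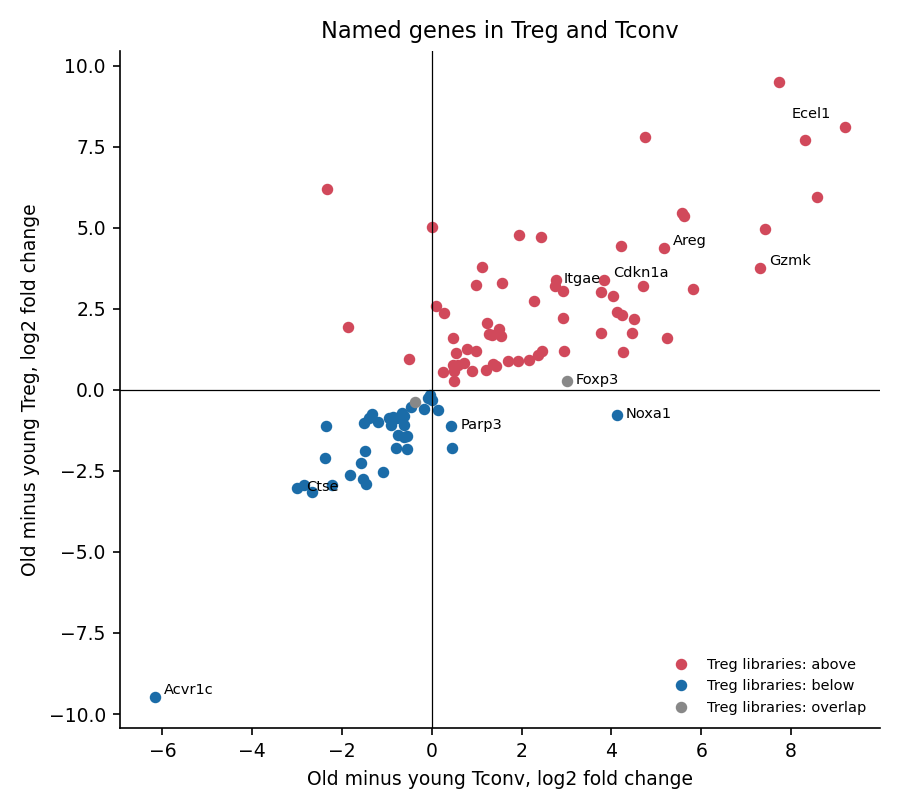
Log2 fold change, old minus young, of the named genes in Tconv (x axis) and in Treg (y axis), leaving out sex-linked genes; colour gives the side of both old Treg libraries. Most genes lie in the quadrants of equal sign, as the 66.9% and 63.1% shared sides describe, and Noxa1 and Parp3 lie apart.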

How the data were processed

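Poly(A)-enriched RNA of sorted spleen Treg and Tconv was sequenced, per the labels' protocols. The authors deposited estimated counts per gene, made with Salmon 0.9.1 on the mm10 build per the submitters' processing notes, and log2 values scaled with DESeq2; the transcript annotation and the log2 transform are not given in the sources used here. Of 13404 rows of counts, 11531 were above 0 in some library and 18 carry date names. Groups were taken from the titles.

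Estimated counts were rounded to whole numbers. In R 4.3.3, edgeR 4.0.16 (quasi-likelihood, TMM scaling, filterByExpr, Benjamini-Hochberg adjustment, threshold 0.05) fitted 6 group means over 12 libraries with 6 residual degrees of freedom; 9495 genes were tested and 2036 were not. The fit was tested on simulated data. Log2 CPM used a prior count of 2. An exact permutation test of 2 against 2 libraries cannot go below 0.333 and was not used. Alternatives were DESeq2 1.42.0, limma 3.58.1 on the deposited log2 values, other scalings, terms, filters and left-out libraries. Gene positions are from GENCODE M21.

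The members, the 30 gene lists and the rules were chosen with earlier results of these data known. Named genes were 5 fixed ones, the 12 widest gaps on each side at a mean of 4 CPM or more, and up to 4 per list. Col6a4, Trim12a, Gata3, Irf4, S100a4, S100a6, Ccr2, Igfbp4, S1pr1, Il6ra, Rbl1, Rbl2, Cd200, Rps18, Rps10, Rpl35, Ntn1 and Synpo fall outside that rule and were named after their values were seen. Genes with an adjusted p over the threshold are given by side, as values. Some members of the lists are counted but not reported by name here.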

Additional observations from a re-analysis of the deposited data

Results flagged for a closer look

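In 4 of the genes chosen for naming both old libraries lay on one side of the young in Treg and on the opposite side in Tconv. They are not the genes with the smallest p for this difference. Ntn1 and Synpo, outside that choice, also lay lower in old Treg and higher in old Tconv (log2 difference -3.25 and -4.26, edgeR adjusted p 0.0626 each). Noxa1, an activator of NADPH oxidase, was lower in old Treg and was at 6.83 and 8.55 CPM in old Tconv, against 0.329 and 0.550 CPM in young Tconv (log2 difference of the age effects -4.90, edgeR adjusted p 0.33). Parp3, a DNA repair gene beside Dcaf1, was at 56.3 and 78.3 CPM in old Treg, against 174 and 118 CPM in young Treg, and at 187 and 171 CPM in old Tconv, against 153 and 112 CPM in young Tconv (-1.55, edgeR adjusted p 0.33). Sema3b, also beside Dcaf1, was at 0.757 and 0.0460 CPM in old Treg, against no count in young Treg, and at 0.0555 and 0 CPM in old Tconv, against 0.0939 and 0.220 CPM in young Tconv (8.53, edgeR adjusted p 0.599). The Sema3b value rests on a few counts. Cd200, an inhibitory ligand gene lower in old Treg, was at 72.2 and 52.8 CPM in old Tconv, against 37.2 and 41.5 CPM in young Tconv (-1.30, edgeR adjusted p 0.37). None of the 4 differences was called.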

How the results depend on the processing

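Between old and young Treg, edgeR called 0 genes with both old libraries; the count was 713 by DESeq2, 2 by limma, 1 with a sex term, which was Ctse, and 0 to 434 when 1 library was left out. For the age effect in Treg minus that in Tconv the count of 0 became 4 with total-count scaling, 128 by DESeq2, 46 with a tag term, 2 with a sex term, 1 by limma and 0 to 9 with 1 library left out. The 1922 genes above became 270 and the 2130 below 75 with a gap of at least 1; with 1 Treg library left out they were 2729 to 3789 and 3021 to 4130, since fewer libraries make the rule easier to meet. RLE size factors gave 2072 and 2017.

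Of the named genes, Foxp3 changed sign, from 0.29 to -0.64 with a tag term, -0.21 with a sex term, -0.94 with macrophage and B cell terms, and between -0.59 (without old Treg 2) and 0.83 (without the library labelled old Treg 1) with 1 library left out; it was -0.06 without young Treg 2. With macrophage and B cell terms Ncr1 was -0.031 and Mmp9 -0.20. The cause was not tested. Of 108 named genes, 63 passed the threshold by DESeq2, which called 713 genes in all.

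Replicate numbers are only numbers here: the deviations of same-numbered old and young Treg libraries had a correlation of -0.656. A replicate block left 0 calls in both tests. With the numbers crossed, chosen after seeing the data, the block gave 0 and 0 calls.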
